A study of Mus musculus with 12 samples.

Results

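Dgcr8 is the RNA-binding partner of Drosha, and the comparison described here set the exonic RNA of mouse embryonic stem cells (ESCs) without Dgcr8 against that of V6.5, the wild-type ESC line sequenced beside them. The members were all genes whose deposited knockout and V6.5 values averaged at least 10 normalised exonic reads. They numbered 12838 of the 18412 genes in the table, and 5574 genes fell below that line. Myom3, with means of 15.9 reads in the knockout and 4.11 in V6.5, lay just inside it, and Tnfsf10, with 13.3 and 6.65, just outside. The knockout line is labelled Dgcr8-/- and a stable mutant, the other line V6.5, and each had 3 libraries. Both lines grew on gelatin in medium with fetal bovine serum and leukemia inhibitory factor (LIF), and RNA was taken with Trizol and made into strand-specific libraries from polyadenylated RNA. Each group is a single line. Loss of Dgcr8 therefore cannot be told apart from any other difference between the lines. Nothing in the labels says that the libraries came from separate cultures, so the p-values below measure only the spread between libraries, which may be technical.

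In the nucleus, Drosha and Dgcr8 cut most primary microRNA transcripts into hairpins, which Dicer then trims to mature microRNAs in the cytoplasm. Loaded into Argonaute proteins, a microRNA pairs through its seed, the stretch from its second to its eighth base, with matches in the 3′ untranslated regions (UTRs) of messenger RNAs, which are then translated less and degraded. In ESCs the miR-290 cluster, joined by the miR-302 and miR-17 families, supplies much of the microRNA pool, and these families are known for restraining inhibitors of the passage from G1 into S phase. Mouse ESCs without Dgcr8 are known to proliferate slowly and to silence their pluripotency genes poorly when made to differentiate.

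The mature microRNAs whose seed matches are counted below are shown because the seeds of the first 9 share most of their letters, so that their target sites overlap by sequence, while that of let-7 does not. They are RefSeq sequences (GRCm38.p6), written 5′ to 3′, with the seed, bases 2 to 8, in capitals.
miR-291a-3p: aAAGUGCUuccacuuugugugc
miR-294-3p: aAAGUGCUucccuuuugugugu
miR-295-3p: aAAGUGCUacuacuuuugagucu
miR-302b-3p: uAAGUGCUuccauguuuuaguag
miR-302d-3p: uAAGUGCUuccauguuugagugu
miR-290a-3p: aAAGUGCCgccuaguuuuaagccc
miR-17-5p: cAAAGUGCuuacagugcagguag
miR-20a-5p: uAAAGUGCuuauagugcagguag
miR-93-5p: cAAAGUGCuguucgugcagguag
let-7a-5p: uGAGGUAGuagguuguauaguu
The first 5 share the seed AAGUGCU. miR-291a-3p lies at chr7:3218968-3218989 and miR-294-3p at chr7:3220691-3220712, both on the plus strand, in the miR-290 cluster.

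Matches to that seed stand in the annotated 3′ UTRs (GENCODE M21, mm10) of several genes on which the results turn. The windows below run 5′ to 3′ along the messenger RNA, with the 7-base match AGCACTT in capitals, and the values of these genes in every library are given further on.
Lats2 first site: gtacagtatggaaagAGCACTTa
Lats2 second site: tgtgttgtatctgatAGCACTTg
Rbl2: tgtatttttcaataaAGCACTTa
Ankrd52 first site: ccaccgcagctctaaAGCACTTg
Ankrd52 second site: ttgcttcaagtaataAGCACTTt
Dazap2: acatcacataccttcAGCACTTc
Ei24: tccagctgtttttttAGCACTTg
Epas1: aaatcgtgttccaagAGCACTTt
Casp2: gtgatataacctagaAGCACTTg
Cdkn1a first site: tcctcagacctgaatAGCACTTt
Cdkn1a second site: taccgtgggtgtcaaAGCACTTa
The Lats2 windows lie at chr14:57691086-57691108 and chr14:57690987-57691009 on the minus strand, the Rbl2 window at chr8:91123815-91123837 and the Ankrd52 windows at chr10:128393364-128393386 and chr10:128393384-128393406 on the plus strand. The Dazap2 window is chr15:100619527-100619549 (plus), that of Ei24 chr9:36779888-36779910 (minus), that of Epas1 chr17:86832860-86832882 (plus) and that of Casp2 chr6:42281543-42281565 (plus). The Cdkn1a windows are chr17:29099813-29099835 and chr17:29100485-29100507 (plus). A match describes the letters only and does not show that the site is used.

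The deposited columns are means of 3 libraries. Because each was printed with 15 significant digits, the whole reads of the single libraries could be solved from them for 12753 members, and these were tested. The other 85 members have so many reads that several solutions fit, and they are described by their means. Library letters name the solutions and carry no replicate number. In both groups 1 library, called A, stood apart, with Pearson correlations across genes of 0.775 to 0.830 with the others, against 0.907 to 0.921 between B and C. Recovered exonic reads ran from 18406705 to 30767908 in the knockout libraries and from 5889725, in V6.5 library A, to 16735682 in V6.5. Values below are normalised exonic reads in libraries A, B and C, in that order, and differences are knockout minus V6.5 on the log2(value + 1) scale with the standard error of the fit, n = 3 and 3. A log2 value in brackets after a gene is this difference.

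Dgcr8 itself had 342, 956 and 1114 reads in knockout libraries and 1929.8, 2707 and 2947 in V6.5 in libraries A, B and C. Every knockout library was below every V6.5 library, but library A of the knockout was far below the other knockout libraries. The difference was -1.80 ± 0.47 (limma adjusted p = 0.111) and did not pass the threshold of 0.05. It passed in the fit with a term for library A against libraries B and C, called the library term from here on, while the fit without it is called the main test. Its intronic reads averaged 412 in the knockout and 256 in V6.5. The sources used here do not give which exons the mutation removes. All 10 genes taken as markers of ESCs had means of at least 1416 reads in both lines, and none of the 8 that were tested was called by limma. Pou5f1, the Oct4 transcription factor, had 28115, 9961 and 8851 reads in knockout libraries and 18637, 5659 and 4459.7 in V6.5, and Nanog had 12532, 12054 and 12446 reads in knockout libraries and 9931, 4604 and 6897 in V6.5. Both lines therefore carried the markers of the labelled cell type. Reads of marker lists of other cell types were present in both lines. The primitive streak and mesoderm list, 22 genes solved in both groups, summed to 575, 350.4 and 455 reads over the knockout libraries and 1026, 4610.5 and 5151 in V6.5, with 6 genes at 0 in all knockout libraries and 2 at 0 in all V6.5 libraries. The fibroblast and smooth muscle list (27 genes) summed to 40190.5, 30663 and 29381 in the knockout and 37595, 96605 and 87521 in V6.5, with 1 gene at 0 in all knockout libraries and 0 such genes in V6.5. The trophoblast list (24 genes) summed to 7465, 5775 and 5336 and 18132, 18234 and 15115, with 5 and 3 genes at 0. V6.5 libraries B and C had the highest sums of the first 2 lists. The sums of other lists went the opposite way, but each rested largely on 1 gene. The endothelium and blood list (19 genes) summed to 4140, 4368 and 4110 in the knockout and 2044, 2158 and 1937 in V6.5. Pecam1, which ESCs express and which is also in the naive pluripotency list, supplied most of these knockout sums. Of the 13 tested genes 9 had a higher and 4 a lower value, with a median difference of 0.70. The muscle and heart list (21 genes) summed to 2029, 2338 and 2825 in the knockout and 1046, 1337 and 872 in V6.5. Smyd1 supplied most of these knockout sums. Of the 11 tested genes of this list 7 had a lower value and 4 a higher one, with a median difference of -1.57, so its higher sum was not shared by most of its genes. The sums of the primitive endoderm and neural lists overlapped between groups. The part of such cells in the other differences was not tested, and in bulk RNA fewer cells of a type and less RNA per cell cannot be told apart.

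Of the 12753 tested genes, 95 (0.745%) rose and 66 (0.518%) fell in the knockout at a limma adjusted p under 0.05, and in all 161 (1.26%) the 3 knockout libraries did not overlap the 3 V6.5 libraries. An unadjusted p under 0.05 was reached by 2070 genes (16.2%). The groups did not overlap in 1353 genes with a higher value (10.6%) and 1513 with a lower value (11.9%). With the library term, 1062 genes (8.33%) rose and 1099 (8.62%) fell, all 161 among them. Library A was picked in each group from these same values, as the library that stood apart. The p-values of that fit may therefore be too small, and its counts, here and below, are descriptive. Since the groups of these 161 genes did not overlap, their direction was the same within library A and within libraries B and C. By the deposited means alone, 1378 members (10.7%) were at least 2-fold higher and 1919 (14.9%) at least 2-fold lower. The calls rested on libraries B and C. Leaving out any 1 of those 4 libraries left 0 calls by limma, with 1275 to 1501 genes at an unadjusted p under 0.05, whereas without library A of the knockout 272 rose and 193 fell, and without library A of V6.5 195 rose and 180 fell. The median difference of all tested genes was -0.08, the value to set beside each list median below. List counts stand likewise beside the shares over all tested genes. These are 1.26% in the main test, 16.9% with the library term and 16.2% at an unadjusted p under 0.05. In lists this short, counts near these shares, 0 calls among them, cannot be told apart from them. Genes at low levels carried most of the downward balance, with a median of -0.69 for the 1321 genes averaging 10 to 30 reads, -0.14 for the 2484 at 100 to 300 and 0.02 for the 2596 at 1000 to 3000.

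**Figure D1:**
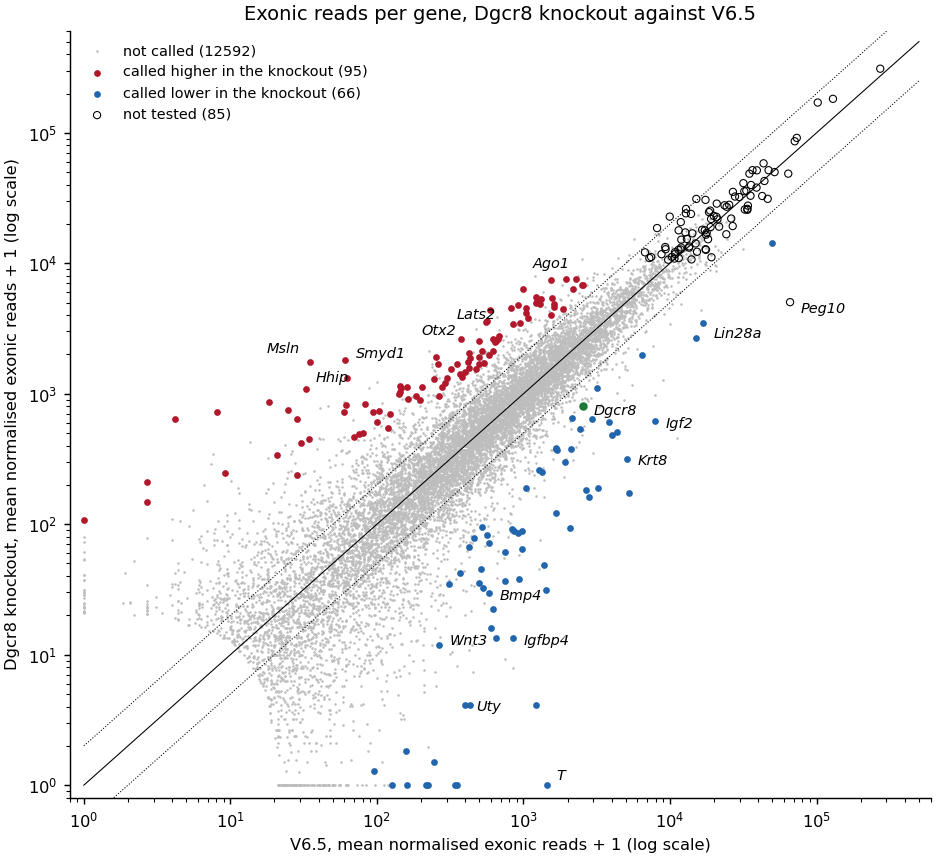
Mean normalised exonic reads + 1 of each member in V6.5 (x axis) and in the Dgcr8 knockout (y axis), both on log scales. Red points are the 95 genes called higher and blue points the 66 called lower, open circles the 85 genes not tested, and the green point Dgcr8. The solid line marks equal values and the dotted lines 2-fold differences.

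Intronic reads, which mostly come from unspliced transcripts, moved with the exonic calls. Of the 91 risen genes with tested introns, 86 had a higher intronic value, and all 57 fallen genes with tested introns had a lower one. Intronic calls numbered 119 higher (1.11% of 10748 genes) and 44 lower (0.409%), 1.52% in all, and 35 of the risen and 15 of the fallen genes were among them. The median exonic and intronic differences were 2.25 and 2.11 in the risen genes and -3.79 and -4.14 in the fallen genes. Exonic and intronic reads come from the same libraries.

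Among components of the silencing complex, Ago1 rose. Of 22 tested genes of this list it was the 1 call in the main test, 7 rose and 2 fell with the library term, and the median was 0.13. Ago1, one of the Argonaute proteins that hold the microRNA, had 7108, 7919 and 7732 reads in knockout libraries and 2031, 2547 and 2281 in V6.5. Every knockout library held about the same high value, and the groups were far apart (1.73 ± 0.23, limma adjusted p = 0.0264). Its intronic reads averaged 121 in the knockout and 115 in V6.5. Per kilobase of exon, Ago1 went from 313 reads in V6.5 to 1038 in the knockout, while Ago2, the Argonaute that can cut its target, was at 409.9 and 422. In V6.5 the per-length level of Ago2 was thus the higher of the pair, and in the knockout that of Ago1. Tnrc6b, a scaffold that links Argonaute to deadenylases, had 3226, 6524 and 6029 reads in knockout libraries and 1338, 1879.8 and 2161 in V6.5, a difference of 1.51 that passed with the library term and not in the main test. Tnrc6a (1.31), Tnrc6c (1.23), the deadenylase gene Cnot6l (1.30) and the helicase gene Mov10 (2.23) likewise passed with the term alone. Of 14 tested processing factors, Dgcr8 among them, none was called by limma in the main test, and Dgcr8 was the 1 gene with an unadjusted p under 0.05 and the 1 that passed with the library term. Drosha, the nuclease that Dgcr8 pairs with, differed by 0.20 and Dicer1 by 0.25, and the largest positive difference of the list was 0.52.

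Genes with seed matches to the miR-290 cluster and miR-302 had a higher median difference than genes without. A 3′ UTR could be assigned to 12434 tested genes (97.5%), and 14.8% of all annotated 3′ UTRs hold AGCACTT on the transcript strand. The median difference was -0.11 in the 10215 genes without a match, 0.07 in the 1799 with 1 and 0.19 in the 420 with 2 or more. Calls followed the same order upward, with 63 genes (0.617%), 17 (0.945%) and 9 (2.14%) rising. Those falling numbered 57 (0.558%), 6 (0.334%) and 2 (0.476%), with no such order. With the library term 7.00%, 13.6% and 19.8% of the 3 groups rose. The intronic medians of these groups were -0.05, -0.04 and -0.06. Genes with 2 or more matches gave the wider separation in libraries B and C, where their median was 0.26, than in library A, where it was 0.05. UTR length moved with the number of matches, with medians of 1011, 2302 and 3900 bases, and its part in the difference was not tested.

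The match to the miR-17 family seed, GCACTTT, overlaps AGCACTT by 6 letters and gave medians of -0.11, 0.11 and 0.27 for 0, 1 and 2 or more matches. Of the 286 genes with 2 or more such matches, 12 rose (4.20%) and 2 fell (0.699%). Matches to miR-290a, GGCACTT, gave -0.09, 0.02 and 0.14, and of the 1241 genes with at least 1 of them 28 rose (2.26%) and 7 fell (0.564%). The match to miR-92a, GTGCAAT, gave -0.09, 0.04 and 0.21, and that to miR-19b, TTTGCAC, -0.09, 0.00 and 0.12. The let-7 match CTACCTC gave -0.08, -0.05 and -0.21. The median of genes with 2 or more let-7 matches was thus the lowest of these, and the medians for the miR-15 and miR-16 match, TGCTGCT, stayed between -0.09 and -0.04. Mature let-7 is known to be scarce in ESCs. Matches to miR-21a, ATAAGCT, which shares no such stretch with the others, gave -0.09, 0.04 and 0.03, and those to miR-26a, TACTTGA, -0.08, -0.05 and 0.02. Medians above that of genes without matches were thus not particular to the seeds of miR-290, miR-302 and miR-17 kin. Of the 10 seeds searched, that of the miR-17 family gave the widest span between 0 and 2 or more matches.

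**Figure D2:**
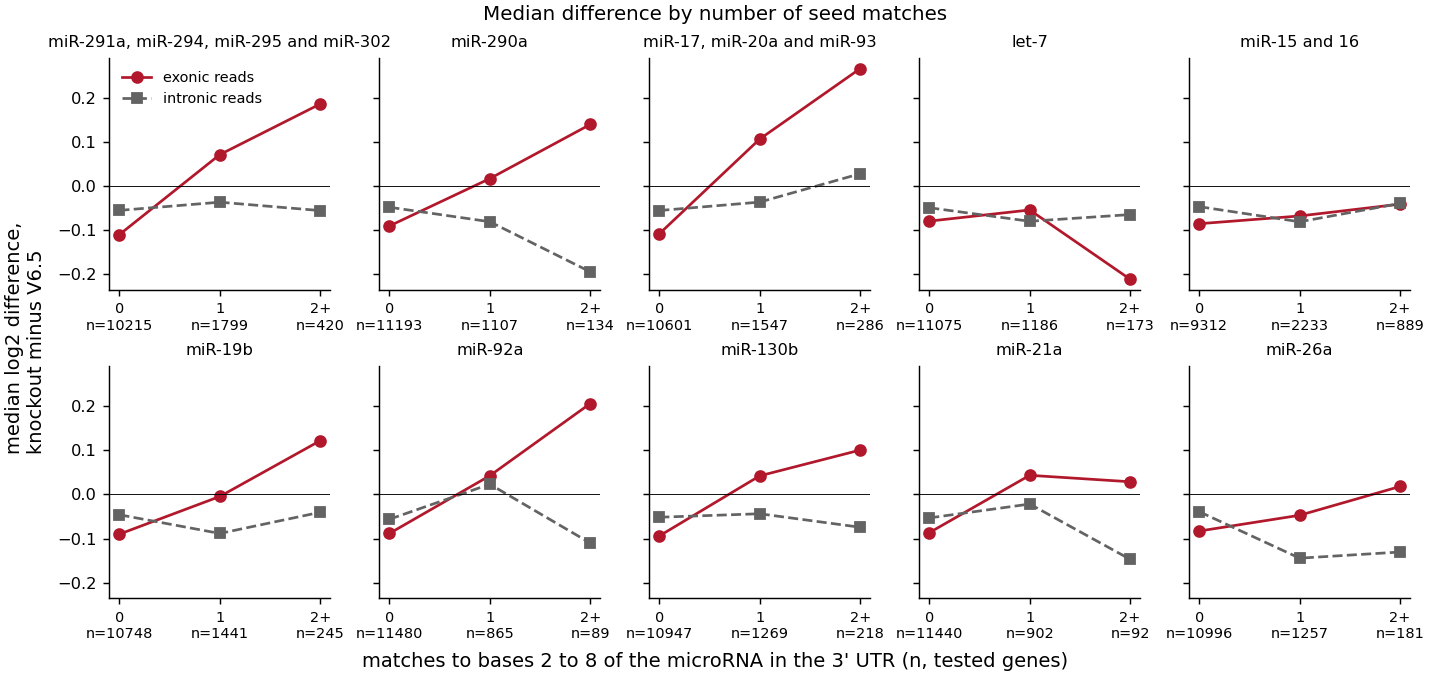
Median log2 difference (knockout minus V6.5, y axis) of tested genes with 0, 1 and 2 or more matches to the seed of each microRNA family in their 3′ UTR (x axis, with the number of genes). Red circles are exonic and grey squares intronic reads. For the miR-291a family the exonic medians run from -0.11 to 0.19 while the intronic medians stay between -0.06 and -0.04.

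In all, 26 of the 95 genes that rose and 8 of the 66 that fell had at least 1 AGCACTT match. Another 63 risen and 57 fallen genes had a searched 3′ UTR without a match, and the rest had no searched 3′ UTR. Among all tested genes with a searched 3′ UTR, 2219 (17.8%) had at least 1 match. Ddhd1 and Hif1an had 3, the most among the calls. In the 26 risen genes with a match the median exonic difference was 2.06 and the median intronic difference 0.92, whereas in the 60 risen genes with tested introns and a searched 3′ UTR without a match they were 2.62 and 2.60. The exonic median thus lay above the intronic one in the risen genes with a match and close to it in those without, a difference that was not tested because the genes were chosen by their exonic values. The following genes were picked from these 34 after their values were seen. Lats2, a Hippo pathway kinase with 2 matches, had 1912, 1631 and 1699.6 reads in knockout libraries and 299.6, 518 and 432 in V6.5 (2.10 ± 0.31, limma adjusted p = 0.0308). Its intronic means were 107 and 71.8. Rbl2, the pocket protein p130 that holds back E2F genes, had 565, 952 and 679 reads in knockout libraries and 117, 72.6 and 118 in V6.5 (2.82 ± 0.42, adjusted p = 0.0309), with intronic means of 51.97 and 48.7. The knockout libraries of both genes lay far above all V6.5 libraries.

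Ankrd52, a regulatory subunit of the phosphatase that recycles Argonaute, had 4721, 3044 and 2577 reads in knockout libraries and 990.3, 849 and 704 in V6.5 (1.99 ± 0.31), and its intronic mean was lower in the knockout, at 54.8 against 87.7. Dazap2 had 5547, 5441 and 5492 reads in knockout libraries and 1168, 1194 and 1317 in V6.5 (2.16 ± 0.23), with intronic means of 32.3 and 47.7. In both genes the exonic groups were well separated while the intronic means went the other way. Ei24, a p53-induced endoplasmic reticulum protein, had 5003, 5730.1 and 5641 reads in knockout libraries and 1564, 1538 and 1627 in V6.5 (1.79 ± 0.23), and Epas1, the hypoxia factor Hif2-alpha, had 2788, 2539 and 2590.2 reads in knockout libraries and 587, 253 and 290.1 in V6.5 (2.91 ± 0.37). Ddhd1, a phospholipase, had 868, 973 and 1050.5 reads in knockout libraries and 302, 244 and 250.2 in V6.5 (1.86 ± 0.30) and Hif1an, the hydroxylase that inhibits Hif1-alpha, 4811, 4421 and 4171 reads in knockout libraries and 1831, 1902 and 1827 in V6.5 (1.27 ± 0.23). Txnip, the thioredoxin-interacting arrestin, had 2 matches and 6538, 7151 and 6885 reads in knockout libraries and 2620.4, 2763 and 2208 in V6.5 (1.44 ± 0.23). In these 5 genes, too, the lowest knockout library was above the highest V6.5 library. The largest falls with a match were those of Prss23, a serine protease with 33.4, 41.95 and 15.99 reads in knockout libraries and 447, 1949 and 1902 in V6.5 (-5.34 ± 0.70), and App, the amyloid precursor (-4.27 ± 0.71), with 1 match each.

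Among 17 tested genes known as miR-290 or miR-302 targets, 13 had a higher value, 3 rose in the main test (Ei24, Lats2 and Rbl2) and 9 rose and 1 fell with the library term. The fall was that of Dkk1, a secreted Wnt inhibitor, which was at 0 in all knockout libraries against 25.4, 63.5 and 76.5 reads in V6.5. The list median was 1.06. Casp2, which has 1 match, had 1065, 1394 and 1584 reads in knockout libraries and 498, 376 and 668 in V6.5 (1.41), and it passed with the term alone. Cdkn1a, the p21 inhibitor of cyclin-dependent kinases and the best known target of the family, has 2 matches, and its difference was 0.25 ± 0.38 (limma adjusted p = 0.834), with 2145, 1634 and 1651 reads in knockout libraries and 863, 2040.3 and 1960.5 in V6.5. Its groups overlapped. Of the Nodal inhibitors, Lefty2 had 0.92 and Lefty1 1.14, neither called in the main test.

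Of 25 tested G1/S genes, Rbl2 and Ccnd2 rose. No gene of the lists for mitosis and DNA replication was called. These lists are so short that this cannot be told apart from the 1.26% called over all tested genes. With the library term 8 of the 25 rose and 1 fell, and the median was 0.40. Ccnd2, cyclin D2, had 2442, 2622 and 2585 reads in knockout libraries and 355, 711 and 869 in V6.5 (2.08 ± 0.37, limma adjusted p = 0.0465). V6.5 library A was its lowest, and all V6.5 values were below all knockout values. Its relative Ccnd1, cyclin D1, had 9248, 9778 and 8678 reads in knockout libraries and 3773, 3746 and 4579 in V6.5 (adjusted p = 0.0598), short of the threshold but apart in every library. Rb1, the retinoblastoma protein, passed with the library term alone (1.40), as did Skp2 (0.76), a subunit of the ligase that degrades p27. In the mitosis list 0 of 25 genes were called by limma, 1 had an unadjusted p under 0.05, 2 rose with the term and the median was -0.07. In the DNA replication list 0 of 24 were called, 1 had an unadjusted p under 0.05, 1 fell with the term and the median was -0.11. The p53 and apoptosis list held 26 tested genes with a median of 0.03, Ei24 was its 1 call, and 3 rose and 4 fell with the term. Over all tested genes 16.9% passed with the term. The share was 36% in the G1/S list, 8% in mitosis, 4.17% in DNA replication and 26.9% in the p53 list.

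Pluripotency genes had higher values in the knockout. Of 12 tested core factors, 11 had a higher value, none was called by limma in the main test, 5 had an unadjusted p under 0.05 and 6 rose with the library term (median 0.70). Fgf4, which ESCs secrete, had 9766, 10441 and 12015 reads in knockout libraries and 4667, 1472 and 1336 in V6.5 (2.35 ± 0.48, limma adjusted p = 0.0618). Sox2, partner of Oct4, had 18502, 14986 and 16366 reads in knockout libraries and 14128, 2615 and 6819 in V6.5. In both genes V6.5 library A lay nearer to the knockout than libraries B and C did. Of 23 tested naive-state genes, 18 had a higher value, 3 rose and none fell in the main test, and 11 rose and 1 fell with the term (median 1.11). Prdm14, which guards the naive state, had 685, 717 and 683 reads in knockout libraries and 208, 85.3 and 73.3 in V6.5 (2.66 ± 0.48, adjusted p = 0.0495), and its intronic mean went from 14.9 to 100.2. Pecam1, a surface protein of ESCs and endothelium, had 2591, 2858 and 2829 reads in knockout libraries and 917, 509 and 612 in V6.5 (2.06 ± 0.30), and the junction protein gene Jam2 3039, 5598 and 5656 reads in knockout libraries and 1285, 872 and 580.2 in V6.5 (2.40 ± 0.39). All 3 had nearly equal values in knockout libraries B and C.

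Dppa3, expressed in naive ESCs and germ cells, went the other way, with 90.5, 45.1 and 122 reads in knockout libraries and 1391, 320.2 and 749 in V6.5 (-3.11), and fell with the library term. Genes of the primed epiblast split. Otx2, a transcription factor of the epiblast and forebrain, had 1959, 1916 and 1868 reads in knockout libraries and 427, 171 and 155 in V6.5 (3.09 ± 0.43, limma adjusted p = 0.0272), with intronic means of 322 and 13.9. The 3 knockout values of Otx2 were nearly equal, and V6.5 library A was the highest of its group. Fgf15 had 492, 698 and 627 reads in knockout libraries and 124, 82.6 and 89.3 in V6.5 (2.61 ± 0.40). Pim2, a survival kinase, fell, with 517, 321 and 284 reads in knockout libraries and 1831, 2173 and 2325 in V6.5 (-2.54 ± 0.32). Fgf5, the classic primed marker, had 8.34, 17.1 and 3.20 reads in knockout libraries and 40.6, 274 and 665 in V6.5 (-4.46) and fell with the term alone. In the whole list of 20 tested genes, 2 rose and 1 fell in the main test, and 4 rose and 5 fell with the term.

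Neural genes were mostly higher. Of 19 tested genes, 15 had a higher value, 1 rose in the main test and 5 with the library term, and the median was 1.44. Ncam1, the neural cell adhesion molecule, had 1022, 1130.3 and 1249.5 reads in knockout libraries and 112, 67.1 and 303 in V6.5 (3.09 ± 0.55, limma adjusted p = 0.0487). Sox1, a neuroectoderm factor, had 1085, 674 and 652 reads in knockout libraries and 96.5, 5.44 and 35.1 in V6.5 (4.79), Neurod1 931, 893 and 884 reads in knockout libraries and 309.8, 27.2 and 102 in V6.5 (3.22) and Pax6 265, 435 and 301 reads in knockout libraries and 50.8, 102 and 82.9 in V6.5 (2.10). These 3 passed with the term alone, and their V6.5 values varied more between libraries, as a ratio, than their knockout values. The summed level of the list's 24 genes solved in both groups, 15270.2, 16401 and 15539 reads over the knockout libraries and 10728, 11219 and 19927 in V6.5, overlapped between groups.

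The streak genes T and Wnt3 fell. Of 15 tested genes of the primitive streak and mesoderm, 11 had a lower value, 2 fell in the main test and 5 with the library term, none rose in either, and the median was -1.55. T, the mesoderm factor Brachyury, was at 0 in all 3 knockout libraries and had 66.02, 2021 and 2243 reads in V6.5, with intronic means of 0 and 512. No read of T was counted in the knockout, while its V6.5 level differed greatly between library A and the others. Wnt3, the signal that starts the streak, had 15.02, 3.11 and 19.2 reads in knockout libraries and 157, 913 and 886 in V6.5 (-5.52 ± 0.96, limma adjusted p = 0.0447). Cdx2 had 6.68, 0 and 0 reads in knockout libraries and 96.5, 194 and 163 in V6.5 and Mixl1 23.4, 12.4 and 25.6 reads in knockout libraries and 25.4, 455 and 822 in V6.5, both short of the main threshold. Of 20 tested trophoblast genes, 2 fell (Krt8 and Krt18), and 7 fell and 1 rose with the term. Of 17 tested primitive endoderm genes, 1 fell, and 1 rose and 5 fell with the term. The call was Dab2, an adaptor of endocytosis, with 35.9, 7.77 and 20.8 reads in knockout libraries and 299.6, 596 and 964 in V6.5 (-4.86 ± 0.74). Gata4, which specifies this lineage, was not called (0.45).

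**Figure D3:**
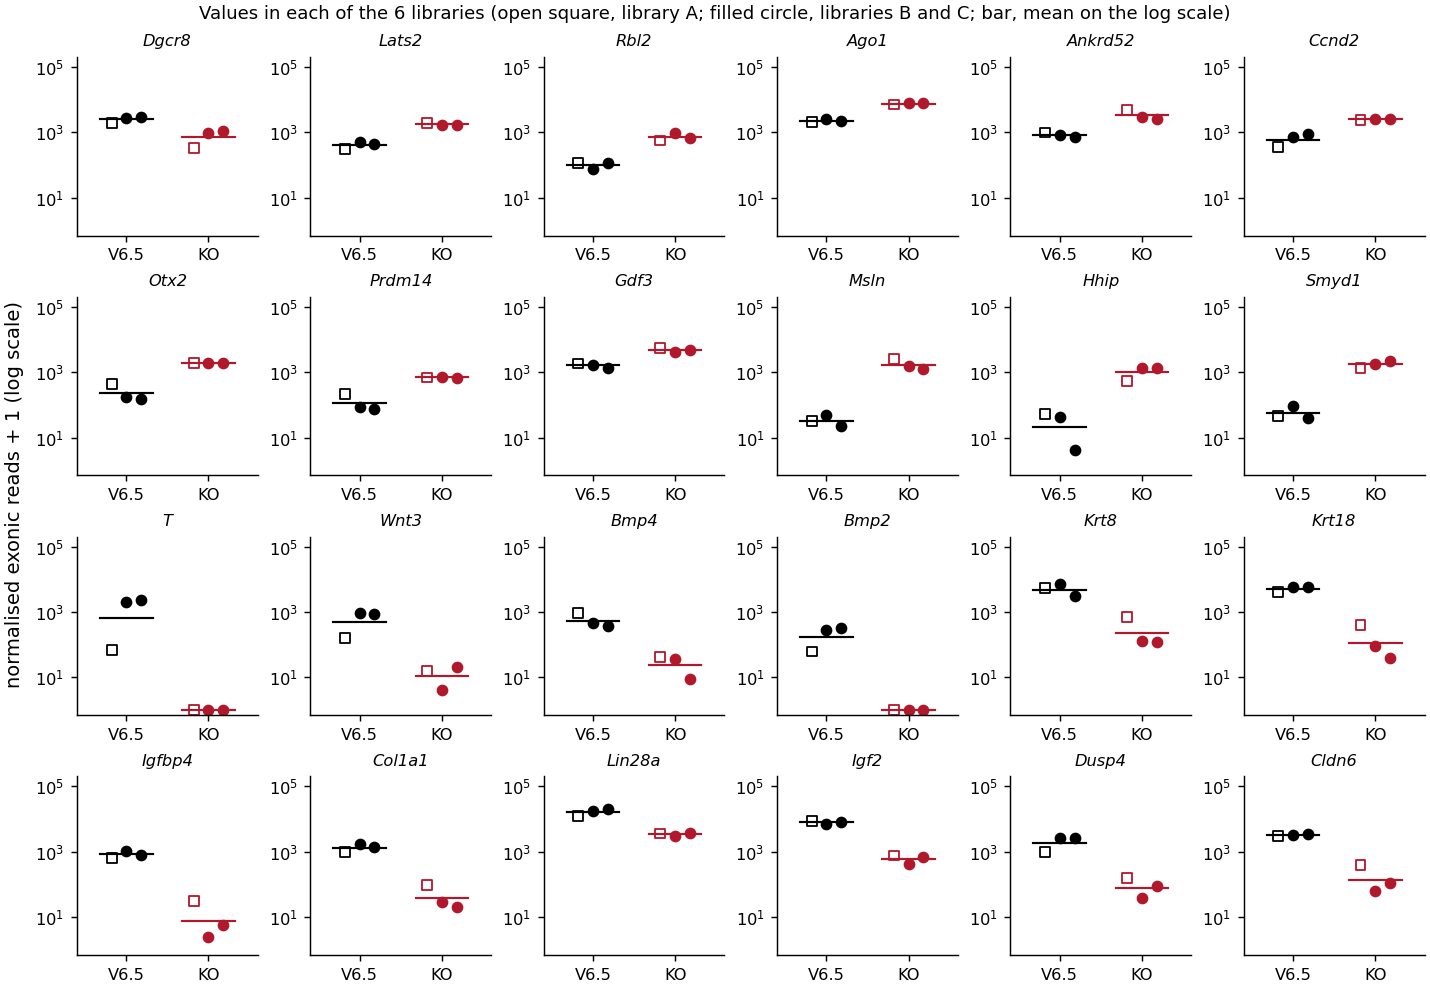
Normalised exonic reads + 1 (log scale) of 24 genes in each library, V6.5 in black and the knockout (KO) in red. Open squares are library A, filled circles libraries B and C, and bars the group mean on the log scale. For each gene shown the knockout and V6.5 libraries do not overlap, and T and Bmp2 lie at 0 reads in all knockout libraries.

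The keratin genes Krt8 and Krt18 fell. Of 26 simple-epithelium genes, 22 had a lower value, 3 fell and none rose, and 10 fell and 1 rose with the library term (median -1.13). Krt8 and Krt18, the paired keratins of simple epithelia, had 687, 132 and 123 reads in knockout libraries and 5353, 6908 and 2999.7 in V6.5 (-4.42 ± 0.68, limma adjusted p = 0.0338) for Krt8, and 389, 88.6 and 36.8 reads in knockout libraries and 4083, 5901 and 5642 in V6.5 (-5.55 ± 0.76, adjusted p = 0.0264) for Krt18. In each, the knockout value was highest in library A and still far below V6.5. Both genes have processed pseudogenes, and how reads shared with them were counted is not stated. The list, 26 genes solved in both groups, summed to 33210.2, 24971 and 24853 reads over the knockout libraries and 47886, 69072 and 67239.9 in V6.5, without overlap. The desmosome gene Dsp had 1112, 1269 and 1429 reads in knockout libraries and 3453, 11173 and 12214 in V6.5 (-2.62) and fell with the term. Cldn6, a tight junction claudin of early embryos, had 391, 62.1 and 110.3 reads in knockout libraries and 2961, 3198 and 3491 in V6.5 (-4.52 ± 0.62), so that the highest knockout library was below the lowest of V6.5 by a wide margin. Cdh1, E-cadherin, had 8890.3, 10105 and 10014 reads in knockout libraries and 12922, 22209.7 and 25662 in V6.5 (-1.01) and fell with the term alone. Cdh1 lies on chromosome 8, whose genes had lower values as a whole, and with every value centred on the median of its chromosome its difference was -0.54 (limma adjusted p = 0.548). Of the cadherin list, Pcdh1 fell (-3.03 ± 0.48) and Fat2, an atypical cadherin, rose from 30.5, 9.07 and 31.9 reads to 729, 769 and 732 (5.09 ± 0.61).

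Of 25 fibroblast and smooth muscle genes, 23 had a lower value, 3 fell in the main test and 15 with the library term, and the median of -2.37 was well below that of all tested genes (-0.08). Col1a1, a chain of collagen I, had 96.8, 27.97 and 19.2 reads in knockout libraries and 1000.4, 1770.0 and 1353 in V6.5 (-5.12 ± 0.64, limma adjusted p = 0.0249). Acta2, smooth muscle actin, had 275, 157 and 118 reads in knockout libraries and 1371, 4301 and 2372 in V6.5 (-3.80 ± 0.50), and Tagln, transgelin, 873, 312 and 261 reads in knockout libraries and 2989, 5632 and 3454 in V6.5 (-3.22 ± 0.50). In Acta2 and Tagln, V6.5 library A was the lowest of its group. Vim, vimentin, was the 1 gene that rose with the term, with 10851, 5975 and 6206 reads in knockout libraries and 2052, 2701 and 3416 in V6.5 (1.47). In the cytoskeleton list, 23 of 29 tested genes had a lower value, with 0 limma calls in the main test, 9 unadjusted p under 0.05 and 13 falls and 1 rise with the term. All 8 tested S100 genes, small calcium-binding proteins, had a lower value, 0 of them called in the main test and 3 with an unadjusted p under 0.05, and 3 fell with the term. Of 26 matrix remodelling genes, 24 had a lower value and 10 fell and 1 rose with the term. The main test called 0 of them by limma, and 10 lower and 1 higher gene had an unadjusted p under 0.05. The basement membrane did not follow as a group. Nid1, the linker nidogen, rose, with 6987, 7904 and 7767 reads in knockout libraries and 2026, 1877 and 1970.0 in V6.5 (1.95 ± 0.23), whereas Col4a1, on chromosome 8, had 1210.0, 793 and 745 reads in knockout libraries and 2532, 2697 and 2279 in V6.5 (-1.48) and fell with the term. Of the list's 20 tested genes 4 rose and 5 fell in that fit.

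**Figure D4:**
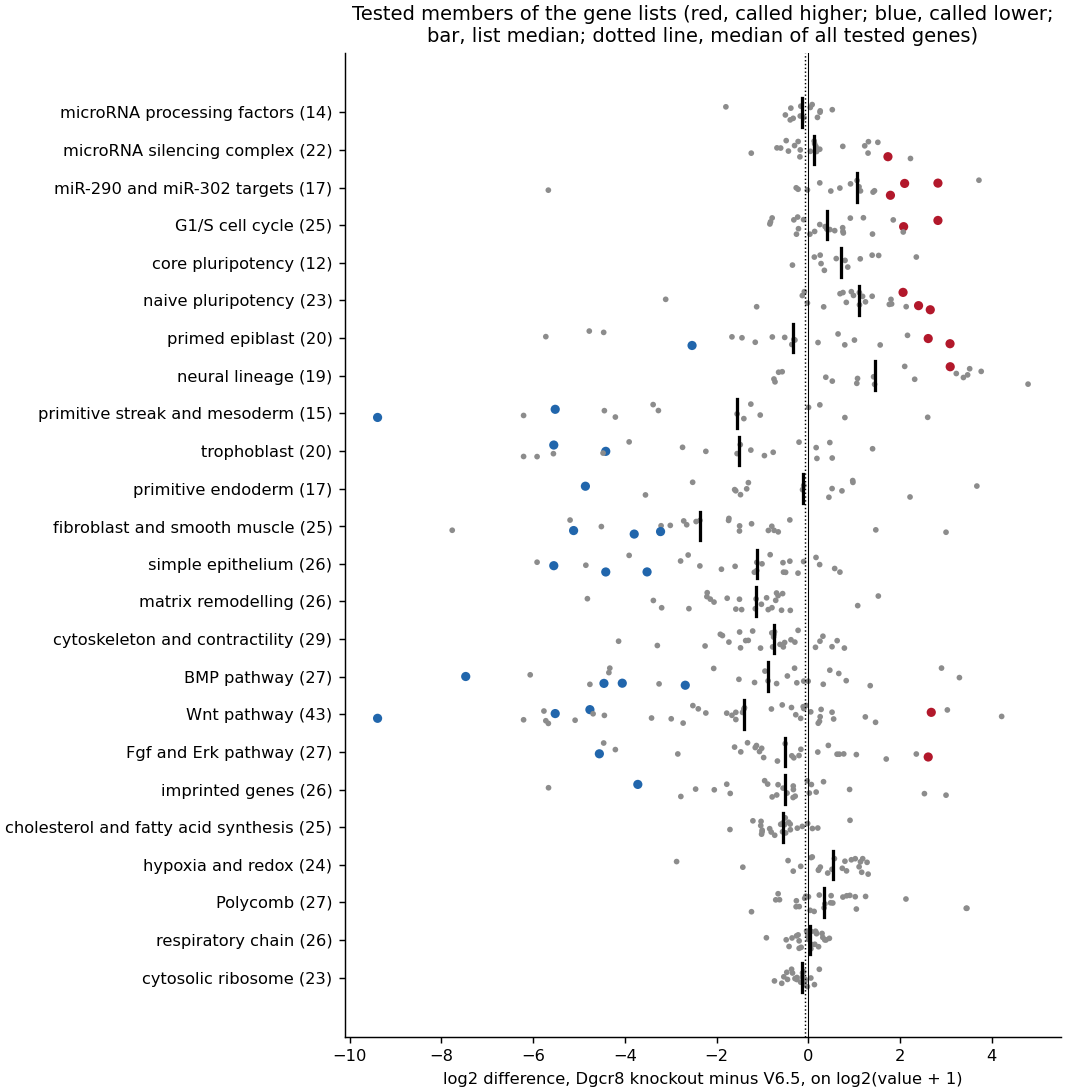
Log2 difference (knockout minus V6.5, x axis) of every tested member of 24 gene lists (number tested in brackets). Red points were called higher and blue points lower; bars are list medians and the dotted line the median of all tested genes, -0.08. Among the lists shown, the fibroblast and smooth muscle median is the lowest, at -2.37, and the neural lineage median the highest, at 1.44.

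The bone morphogenetic protein (BMP) ligand genes Bmp2, Bmp4 and Bmp8b fell. Of 27 tested BMP pathway genes, 4 fell and none rose in the main test, and 7 fell with the library term (median -0.88). Bmp4 had 42.1, 35.7 and 7.99 reads in knockout libraries and 924, 447 and 363 in V6.5 (-4.46 ± 0.76, limma adjusted p = 0.0435). Bmp2 was at 0 in all knockout libraries against 60.9, 270.4 and 332 reads in V6.5 (adjusted p = 0.0308), and Bmp8b had 84.3, 66.8 and 47.97 reads in knockout libraries and 343, 503 and 434 in V6.5 (-2.68 ± 0.46). Bmp1, a procollagen protease named with the family, had 69.3, 12.4 and 22.4 reads in knockout libraries and 399, 763 and 333 in V6.5 (-4.06 ± 0.74). In all 4 genes the highest knockout library was below the lowest V6.5 library, and no receptor gene of the list was called. Among the Nodal and Tgf-beta genes, Gdf3, a Nodal-related ligand, rose, with 5474, 4225 and 4808 reads in knockout libraries and 1836, 1654 and 1364 in V6.5 (1.58 ± 0.25), and was the 1 call of 25 tested genes, of which 5 rose and 3 fell with the term. Tgfb2 had 52.6, 104 and 67.2 reads in knockout libraries and 340.2, 1574 and 2002 in V6.5 (-3.82) and fell with the term alone. The 20 genes of the Smad2/3 feedback list had 0 limma calls and 4 unadjusted p under 0.05, with 2 rising and 4 falling with the term.

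Wnt ligand genes were lower as a family in the deposited means. Of 14 tested Wnt genes, 13 had a lower value, 12 were at least 2-fold lower by the means, Wnt3 fell in the main test and 8 fell with the library term. Over all members 14.9% were at least 2-fold lower by the means, and of the 1321 averaging 10 to 30 reads 552 were. The means of the family summed to only 427 reads in the knockout and 2520 in V6.5. The part of this low level in the difference was not tested. In the pathway list of 43, 1 rose and 3 fell, and 3 rose and 13 fell with the term (median -1.41). Axin2, the feedback target, had 67.6, 29.5 and 14.4 reads in knockout libraries and 485, 1317 and 1007 in V6.5 (-4.76 ± 0.68, limma adjusted p = 0.0308), and Sfrp1, a secreted Wnt inhibitor, 5282, 7325 and 6579.5 reads in knockout libraries and 1135, 1039.7 and 819 in V6.5 (2.68 ± 0.26, adjusted p = 0.0177). Every knockout library had more Sfrp1 and less Axin2 than any V6.5 library. Notum, an enzyme that inactivates Wnt proteins, had 1551, 449.8 and 349 reads in knockout libraries and 68.6, 39.01 and 12.8 in V6.5 (4.21) and rose with the term alone. The receptor gene Lrp6 (0.24) and Ctnnb1, beta-catenin (-0.11), were not called.

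In the Fgf and Erk list, Dusp4, a phosphatase of Erk, fell, with 153, 37.3 and 87.9 reads in knockout libraries and 1011, 2614 and 2590.1 in V6.5 (-4.56 ± 0.61, limma adjusted p = 0.0264), and Fgf15 rose. With the library term, 4 genes of the 27 rose and 10 fell, among the falls Myc (-1.61), Spry1 (-1.47) and Etv4 (-1.16). Of the LIF list, Pim2 fell in the main test, and 5 genes of 19 rose and 2 fell with the term. Lifr, the LIF receptor, had 2286, 4124 and 4514 reads in knockout libraries and 1356, 1001 and 787 in V6.5 (1.77) and its partner Il6st 4033, 4894 and 5232 reads in knockout libraries and 1912, 2478 and 1935 in V6.5 (1.16), and both rose with the term. Hhip, the Hedgehog-binding inhibitor, had 527, 1367 and 1337 reads in knockout libraries and 50.8, 41.7 and 3.19 in V6.5 (5.56 ± 0.997, adjusted p = 0.049). The Hedgehog target genes Ptch1 (1.51) and Gli1 (1.75) rose with the term alone, and with Hhip 5 of the 14 tested genes of the list rose in that fit. Hhip was the 1 gene of the Hedgehog list whose knockout and V6.5 libraries did not overlap. That is 7.14% of the list, against 22.5% of all tested genes. The list median was -0.13, with 7 genes higher and 7 lower. Lats2 was the 1 call among 23 tested Hippo genes, of which 4 rose and 4 fell with the term. The Yap targets Ctgf (-1.16) and Cyr61 (-2.06) fell with the term. In the Notch list 0 of 17 tested genes were called by limma, 2 had an unadjusted p under 0.05, with 2 rising and 1 falling with the term. That is 17.6% of the Notch list, against 16.9% over all tested genes in that fit.

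Igf2, the imprinted growth factor, fell from 8656, 7105 and 7852 reads in V6.5 to 764, 408 and 676 in the knockout (-3.72 ± 0.30, limma adjusted p = 0.0127), and its intronic means were 256 and 44.6. The highest knockout library was far below the lowest V6.5 library. Of 26 tested imprinted genes, 19 had a lower value, Igf2 was the 1 call, and 2 rose and 9 fell with the library term. Peg10, a retrotransposon-derived imprinted gene among the 85 that were not tested, had a deposited mean of 5034 in the knockout against 65941 in V6.5. Sfmbt2, an imprinted Polycomb-related gene outside the list, fell, with 434, 520.5 and 566 reads in knockout libraries and 3738, 4489 and 4801 in V6.5 (-3.10 ± 0.26). The imprinted amino acid transporter gene Slc38a4 had 1452, 2724 and 2828 reads in knockout libraries and 4756, 9723 and 8381 in V6.5 (-1.70). Lin28a, which binds let-7 precursors and keeps them from maturing, had 3596, 2934 and 3841 reads in knockout libraries and 12625, 18142 and 19670.2 in V6.5 (-2.27 ± 0.28, adjusted p = 0.0249). Its knockout values were even across libraries and less than the lowest V6.5 value. Of 18 genes of the Lin28 and let-7 list, Lin28a was the 1 call, and 3 rose and 5 fell with the term. Hmga2 (-1.72) and Arid3a (-1.68) fell and Igf2bp2 (1.72) rose in that fit.

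The Polycomb list and the lysine demethylases and methyltransferases had 0 calls, in lists so short that this cannot be told apart from the 1.26% called over all tested genes. In the Polycomb list, 18 of 27 genes had a higher value, none was called by limma in the main test, 6 had an unadjusted p under 0.05, and Bmi1 (2.13), Aebp2 (1.25) and Phc3 (1.02) rose with the library term. These were 11.1% of the list, against 16.9% over all tested genes in that fit. In the Kdm and Kmt families of lysine demethylases and methyltransferases, 21 of 23 genes had a higher value, with a median of 0.42, 0 limma calls in the main test, 4 unadjusted p under 0.05 and 5 rises with the term. Dnmt3a, a de novo DNA methyltransferase, had 5328, 3643 and 3856 reads in knockout libraries and 3474, 1475 and 1809 in V6.5 (1.004) and rose with the term. Of 23 tested germ cell genes, Sohlh2, a factor of early germ cells, rose from 55.9, 7.26 and 19.1 to 403, 676 and 854 reads (4.87 ± 0.78), and Rhox5, a homeobox gene on the X chromosome, fell, with 33.4, 24.9 and 47.97 reads in knockout libraries and 967, 689 and 585 in V6.5 (-4.38 ± 0.49, limma adjusted p = 0.0223). Of 23 Hox genes, which pattern the body axis, 0 were called by limma in the main test, 3 had an unadjusted p under 0.05, and Hoxa10 and Hoxa3 rose with the term.

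Among metabolic genes, Slc2a3, the glucose transporter Glut3, fell, with 14188, 14050.3 and 14649 reads in knockout libraries and 36404, 53566 and 59972 in V6.5 (-1.77 ± 0.30, limma adjusted p = 0.0426), the 1 call of 20 tested glycolysis genes, of which 1 rose and 6 fell with the library term. Slc2a1, Glut1, had 7489, 2486 and 2360.0 reads in knockout libraries and 13684, 7336 and 6199 in V6.5 (-1.27). Cth, cystathionine gamma-lyase, rose, with 2013, 2369 and 3151 reads in knockout libraries and 655, 616 and 641 in V6.5 (1.95 ± 0.27), and its intronic mean went from 171 to 754. Of 25 genes of cholesterol and fatty acid synthesis, 22 had a lower value, 0 were called by limma in the main test, 8 had an unadjusted p under 0.05 and 12 fell with the library term. The largest difference was that of Msmo1, a sterol oxidase gene on chromosome 8 (-1.71). Of 24 hypoxia and redox genes, 19 had a higher value and 8 rose and 1 fell with the term, among the rises Srxn1 (1.28), Nqo1 (1.30) and Cat, catalase (1.18), and with 0 limma calls in the main test and 9 unadjusted p under 0.05. The fall was that of Hmox1, heme oxygenase 1, on chromosome 8 (-1.43). Housekeeping lists had medians near 0, but the cytosolic ribosome and the proteasome leaned downward. The respiratory chain had a median of 0.03 over 26 tested genes, with 0 calls in both limma fits and 0 unadjusted p under 0.05. The cytosolic ribosome had -0.13 over 23 genes, with 0 calls, 1 unadjusted p under 0.05 and 2 falls with the term, and the proteasome -0.17 over 23, with 0 calls, 0 unadjusted p under 0.05 and 2 falls with the term. In each of these 2 lists 20 of the 23 genes had a lower value, as did 11 of the 26 respiratory chain genes. Over all tested genes 6921 of 12753 had a lower value.

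Genes of RNA sensing and antigen presentation had 0 limma calls in the main test of 25 and 10 tested, with 9 and 4 unadjusted p under 0.05. With the library term, 7 sensing genes rose, among them the interferon signalling factor Irf9 (1.79), and 2 fell, Isg15 and Ifit2. Isg15 was at 0 in all knockout libraries and had 20.3, 111 and 86.1 reads in V6.5. In antigen presentation B2m, the light chain of class I molecules (-2.04), the peptide transporter gene Tap1 (-2.28) and H2-K1, a class I heavy chain (-1.66), fell with the term. The median of this list was -1.85.

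The largest rises among genes with reads in every library were those of 9030617O03Rik (5.74 ± 0.63) and Msln, mesothelin, which went from 30.5, 48.99 and 22.3 reads to 2447, 1558 and 1249.5 (5.66 ± 0.48, limma adjusted p = 0.0127). Smyd1, a methyltransferase of muscle, had 1339, 1811 and 2266 reads in knockout libraries and 45.7, 94.4 and 38.3 in V6.5 (4.98 ± 0.46) and an intronic difference of 5.43. Hhip (5.56), Fat2 (5.09) and Sohlh2 (4.87), described above, were among the largest as well. Below these came Rapgef4, an exchange factor for Rap, Prss35, a serine protease-like gene, Rfx4, Gpx2, a glutathione peroxidase, Fez1 and Ceacam1, with differences of 4.61, 4.55, 4.28, 3.97, 3.95 and 3.92. Among 9030617O03Rik, Msln, Smyd1 and these 6 genes no V6.5 library exceeded the 112 reads of Ceacam1 in library A, and no knockout library was below the 142 reads of Rapgef4 in library C. At the highest levels, Dpysl3, a cytoskeletal protein of neurons, had 6576, 7706 and 7949 reads in knockout libraries and 1229, 1472 and 1938 in V6.5 (2.28 ± 0.27), Tmem2, a membrane protein, 5333, 6616 and 7071 reads in knockout libraries and 1902, 2057 and 2558 in V6.5 (1.55 ± 0.26), and Lima1, an actin-binding protein, 7258, 6554 and 6534 reads in knockout libraries and 2912, 2303 and 2284 in V6.5 (1.45 ± 0.24). Scarb2, a lysosomal membrane protein, rose by 2.04 ± 0.28 and 9530068E07Rik by 2.05 ± 0.26.

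The largest falls among genes with reads in every library were those of Igfbp4, an insulin-like growth factor binding protein, with 30.9, 1.55 and 4.80 reads in knockout libraries and 663, 1047 and 813 in V6.5 (-6.73 ± 0.95, limma adjusted p = 0.0286), Krt18 and Wnt3. Car4, a carbonic anhydrase, had 25.9, 13.98 and 4.80 reads in knockout libraries and 576, 718 and 504 in V6.5 (-5.48 ± 0.70), and Greb1 15.02, 10.9 and 6.40 reads in knockout libraries and 142, 400.1 and 249 in V6.5 (-4.44 ± 0.72). Klhl13, an X-linked adaptor of a ubiquitin ligase, was among the highest in level, with 2311, 2818 and 2929 reads in knockout libraries and 16042, 14299 and 14688 in V6.5 (-2.49 ± 0.24). Arl4c, a small GTPase, differed by -2.56 ± 0.38 and Glipr2 by -2.15 ± 0.33. Among the fallen genes, 7 were at 0 in all knockout libraries. Besides T and Bmp2, they were Plac8, Slc6a14, Tmem200a, Ackr4 and Zfhx4, with V6.5 means of 214, 352, 339.6, 125 and 159 reads. Napsa, an aspartic protease gene, was in the opposite position, at 0 in all V6.5 libraries and with 187, 62.1 and 70.4 reads in the knockout. The 3 Y-linked members also had lower values. Eif2s3y had 0, 9.32 and 0 reads in knockout libraries and 602, 1559.5 and 1479 in V6.5, Uty 0, 9.32 and 0 reads in knockout libraries and 297, 390.1 and 516 in V6.5 and Ddx3y 55.1, 279 and 321 reads in knockout libraries and 673, 1642 and 1814 in V6.5, and the first 2 were called. Ddx3y has a close X-linked relative, Ddx3x, and reads may be split between them.

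Chromosome 8 was lower as a whole. Of its 684 tested genes, 528 had a lower value and the median difference was -0.52, whereas the medians of the other autosomes except chromosome 11 (-0.24) lay between -0.10 and 0.03. The median of the 469 tested genes of chromosome X was -0.22. With the library term 24 genes of the chromosome rose and 150 fell. Over its 547 genes with a mean of at least 100 reads, the median relative to all autosomes was -0.43, and 77.5% were below the autosomal median. Library by library, these medians were -0.02, -0.30 and -0.31 in the knockout and 0.30, 0.25 and 0.18 in V6.5. Every knockout library lay below every V6.5 library, and library A of the knockout was the nearest to 0. Intronic reads of 267 genes gave -0.41. All 7 windows of 20 Mb along the chromosome had a median between -0.54 and -0.38. The shift was thus spread over the whole length of the chromosome, and DNA copy number was not tested.

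On chromosome 8, 3 genes were called higher, Sfrp1, Hhip and Rbl2, and 6 lower, Dusp4, Arhgap10, Rhou, Kcnk1, Slc25a4 and Nip7. Slc25a4, the mitochondrial ADP/ATP carrier, had 1927, 2011 and 2043 reads in knockout libraries and 5495, 7044 and 6717 in V6.5 (-1.68 ± 0.24, limma adjusted p = 0.0286), and Nip7, a ribosome assembly factor, 888, 1238 and 1184 reads in knockout libraries and 2755, 3452 and 3244 in V6.5 (-1.52 ± 0.26). With every value centred on the median of its chromosome in each library, a fit added after seeing the data, 115 genes rose and 78 fell, and 144 of the 161 calls remained. The 3 rises on chromosome 8 remained in that fit, but of its 6 falls Dusp4 alone did (-4.08). The others lost the call at differences between -2.60 for Arhgap10 and -1.05 for Nip7. On chromosome 2, too, the groups did not overlap, but by far less, with medians of 0.04 to 0.06 in the knockout and -0.08 to -0.03 in V6.5. The medians of chromosome 11 were -0.16 and -0.20 in knockout libraries B and C but 0.12 in library A, against 0.05 to 0.13 in V6.5, so that its groups overlapped. Chromosome X held 2 rises and 11 falls, 2.77% of its tested genes against 1.26% over all, and its medians relative to the autosomes were -0.47, 0.13 and 0.17 in the knockout and -0.23, 0.13 and 0.34 in V6.5, which overlapped. Library A was the lowest in both groups.

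**Figure D5:**
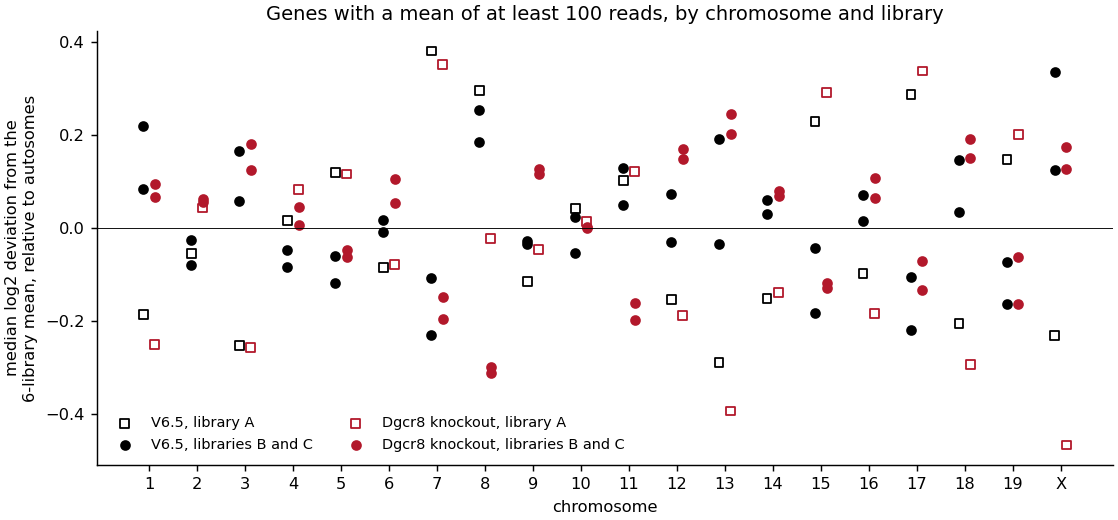
Median log2 deviation of each library from the mean of the 6 libraries, relative to the autosomes, for genes averaging at least 100 reads (y axis), by chromosome (x axis). Black is V6.5 and red the knockout; squares are library A and circles libraries B and C. On chromosome 8 all knockout libraries lie below all V6.5 libraries.

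By annotated class, 12784 members were protein-coding, with 94 rises and 66 falls among the 12700 tested, and the 1 further rise was that of AA414768, annotated as a processed pseudogene. Counts of calls in families grouped by symbol stand beside the 1.26% called over all tested genes. Of 360 tested zinc finger genes named Zfp with a number, 1 rose (Zfp704, 1.83 ± 0.32) and the median was -0.04. Of 81 tested Rpl and Rps genes, 65 had a lower value, with a median of -0.20, 0 limma calls and 7 unadjusted p under 0.05. Of 238 tested solute carriers none rose and 4 fell (1.68%), and of 8 tested keratins 2 fell. The 85 untested members had means of at least 9096 reads, and the knockout mean was higher in 57 and lower in 28. Apart from Peg10, the ratio of their means reached 2-fold in 4 genes, all higher in the knockout.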

How the data were processed

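Polyadenylated RNA of 3 Dgcr8 knockout and 3 V6.5 libraries was analysed. The submitters' processing notes name TopHat2 2.0.12, DESeq and the mm10 build; the sources used here give no annotation, counting or strand settings. The authors deposited 1 normalised read-count signal per gene and group, separately for exons and introns, which whole reads of 3 libraries, each divided by a size factor and averaged, fit. The V6.5 and knockout columns were each solved for the whole reads of 3 libraries, which gave a single solution for 99.4 to 100% of the genes when tested on simulated data, all of them right. The size factors were given in that simulation, so it did not test how they were found from the real columns. Library letters carry no replicate number, and library A, the one that stood apart, was matched between groups from the data. Depth was 5889725 to 30767908 exonic and 559057 to 3006130 intronic reads.

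Genes whose 2 columns averaged 10 or more were compared with limma 3.58.1 in R 4.3.3 on log2(value + 1), with a mean-variance trend and Benjamini-Hochberg adjustment over 12753 genes, and called at an adjusted p under 0.05. This scale understates changes of low genes. Every adjusted p in the text is limma's. Exact tests of 3 libraries against 3 cannot go below 0.1. A second fit added a term for library A. Because that library was picked from the same values, the p-values of this fit may be too small. On simulated data of 12753 genes the fit recovered 29% of 4-fold and 66% of 16-fold changes, with 3 false calls. The simulated noise was independent between genes and held no deviation of library A shared across them. These rates therefore need not hold for the real libraries. Alternatives changed the added constant, minimum mean, trend, scaling (trimmed mean of M values), weights (voom), library term, libraries and chromosome centring. Seed matches were searched in the longest annotated 3′ UTR of each gene in GENCODE M21, with microRNAs from RefSeq.

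The members and gene lists were chosen with earlier results of these data known. Named are the 12 called genes in each direction with the highest level and the 12 with the largest difference among genes with reads in every library, called genes of each list, other genes that define a list, and processing factors; genes named with their seed matches, and those at 0 throughout a group, were chosen after their values were seen.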

Additional observations from a re-analysis of the deposited data

How the results depend on the processing

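No paired analysis was possible because the columns carry no replicate numbers and the recovered libraries cannot be tied to them. The 95 rises and 66 falls became 1062 and 1099 with the library term, 1004 and 1031 in libraries B and C alone, and 28 and 21 with voom weights. Without 1 library at a time they ranged from 0 to 272 and from 0 to 193. The 0 calls arose on leaving out library B or C of either group, with 1275 to 1501 genes at an unadjusted p under 0.05. The other settings gave 69 to 119 rises and 63 to 96 falls. None of the 161 called genes changed direction in any setting. Because their groups did not overlap, leaving out libraries or changing the added constant or the trend could not have reversed them. Of the calls, 161 were kept with the library term, 49 with voom and 87 without the trend. The added chromosome centring was chosen after seeing the data. The 1919 genes at least 2-fold lower by the means became 1149 at a minimum mean of 50, and 1847 to 3263 without 1 library at a time, and the 1378 higher ones 1310 to 2563; the largest values came from leaving out knockout library A and V6.5 library A. At a minimum mean of 1 the 2-fold counts were 1981 higher and 2790 lower. Ago2 differed by 0.04, and by -0.028 to 0.13 without 1 library at a time. Cdkn1a differed by 0.25, by -0.28 in libraries B and C alone and by -0.16 to 0.46 without 1 library at a time; neither was called in any of these.

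Genes averaging under 30 reads had no call. With 3 libraries a group, only 29% of simulated 4-fold changes were recovered. Intervals on recovered reads cover counting error only and were not used. The longest UTR was taken for each gene, and shorter ones in use would hold fewer matches.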

Other observations

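Genes of the epithelial-mesenchymal switch, blood vessels, muscle, nerve cells and axon guidance gave single calls. Zeb1, a repressor of epithelial genes and a known target of the miR-200 family, had 694, 1233 and 1138 reads in knockout libraries and 173, 96.2 and 163 in V6.5 (2.82 ± 0.41, limma adjusted p = 0.0308). All knockout values were above all V6.5 values. It was the 1 call of 18 tested genes, and its list median was -0.39. Pecam1 was the 1 call of 13 genes of endothelium and blood, and with the library term Flt1, a receptor for vascular endothelial growth factor, fell (-4.78) and Tek rose (1.84). In the muscle and heart list of 11 genes Smyd1 rose while Acta1, skeletal muscle actin, had 85.1, 4.66 and 0 reads in knockout libraries and 401, 553 and 258 in V6.5 (-5.62) and fell with the term alone. Of 28 genes of axon guidance and ephrin signalling 21 had a lower value, with a median of -0.66, and Epha1, an ephrin receptor, fell, with 143, 45.1 and 65.6 reads in knockout libraries and 533, 1255 and 944 in V6.5 (-3.50 ± 0.56). In the list of synapse and ion channel genes (18 tested, median 0.05) Kcnk1, a potassium channel on chromosome 8, fell, with 425, 345 and 350.2 reads in knockout libraries and 1244, 1604 and 2153 in V6.5 (-2.13 ± 0.31), a call lost with chromosome centring, and 5 genes rose with the term.

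Of 20 genes of the retinoic acid pathway 0 were called by limma, 5 had an unadjusted p under 0.05, and 1 rose and 4 fell with the library term. Among the falls were those of Cyp26a1, which degrades retinoic acid (-4.72), the binding protein gene Crabp1 (-3.17), and Rdh10 (-1.75). Of 14 integrin genes 0 were called, 3 had an unadjusted p under 0.05, and 4 rose and 1 fell with the term, the fall being that of Itga3 (-1.88). Of 18 genes of DNA methylation 0 were called, 7 had an unadjusted p under 0.05, and 5 rose and 2 fell with the term, among the rises Dnmt1, the maintenance methyltransferase (0.71). Of 28 genes of lysosome and autophagy 0 were called, 7 had an unadjusted p under 0.05, and 3 rose and 5 fell with the term.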
